A study of Homo sapiens with 6 samples.

Results

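DNAJ proteins, also called HSP40 or J proteins, are the cochaperones that bring client proteins to HSP70. The family was taken as every gene of the deposited expression tables whose symbol is DNAJA, DNAJB or DNAJC followed by a number, a rule that uses no measured value. It found 43 of the 26255 genes, of which 4 were class A, 13 class B and 26 class C. Another 9 symbols begin with DNAJ but fall outside this rule, among them DNAJC5B, DNAJC5G and several antisense transcripts. RNA-sequencing (RNA-seq) was performed in 22RV1, a human castration-resistant prostate cancer (CRPC) cell line, after treatment for 24 h with vehicle (DMSO, 3 samples) or with 10 nM bruceantin (BCT, 3 samples), a quassinoid. All 6 samples came from this single line, grown in full medium, and the study asked which gene expression programs respond to BCT. Nothing in the labels says that the samples were separate cultures, so each p-value measures only the spread between these samples, which may be technical.

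Every J protein holds a J domain, which stimulates the ATPase of an HSP70 and so locks the HSP70 onto its client. Class A members add a glycine- and phenylalanine-rich stretch and a zinc-finger-like region, class B members have the glycine- and phenylalanine-rich stretch, and class C members share little beyond the J domain, which places HSP70 activity at membranes, ribosomes, spliceosomes or histones. In steroid receptor maturation, HSP40 and HSP70 act on the newly made receptor before HSP90 takes it over.

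Expression was given as FPKM, in which fragments are divided by transcript length and by the fragments mapped in the library, so levels of different genes can be set side by side. Fold changes are BCT against DMSO on the log2(FPKM + 0.1) scale, on which the change of a gene near the pseudocount is understated. The test was limma with Benjamini-Hochberg adjustment over all 12729 genes of the table whose mean over both groups reached 1 FPKM, and a gene was called when its log2 fold change exceeded 0.85 in size at an FDR under 0.05. With 3 samples in each group, the smallest p of an exact permutation test is 0.1, and no such test was used for a single gene. In bulk RNA, fewer cells of a kind and less RNA per cell cannot be told apart.

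Summed over all genes, FPKM ranged from 1169649 to 1572321 in the DMSO group and from 757534 to 799838 in the BCT group. MIR6087 alone held 43.5% to 55.3% of the DMSO sums and 31.7% to 32.5% of the BCT sums. Depth is known only as a ratio, which lay between 0.871 and 1 in DMSO samples and between 1.05 and 1.13 in BCT samples relative to DMSO replicate 1. Over all tested genes, the median log2 fold change was -0.04 as deposited, 0.72 after all samples were scaled to equal FPKM sums and 0.34 when MIR6087 was left out of those sums. The luminal prostate markers KLK3, KRT8, KRT18, EPCAM and FOLH1 were detected in every sample, with the lowest values for KLK3, at 8.03 to 9.76 FPKM with DMSO and 0.863 to 1.32 FPKM with BCT. Of 6 markers of other cell types, 2 passed the level needed for a test. The summed level of these 6 was 389 to 417 FPKM with DMSO and 63.4 to 74.0 FPKM with BCT, nearly all of it ALB. Without ALB the sum was 1.45 to 1.62 FPKM with DMSO and 5.09 to 6.41 FPKM with BCT, nearly all of it COL1A1. INS stood at 0 in every sample, PTPRC and PECAM1 did not exceed 0.036 FPKM, and COL3A1 did not exceed 0.192 FPKM. The part of these markers in the results on DNAJ genes was not tested.

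As deposited, the DNAJ family as a whole stood at a similar level in both groups, while a few members changed severalfold. With equal sums the family was higher with BCT, as was the median of all tested genes. Of the 43 members, 38 had the mean level needed for a test, namely all 4 of class A, 9 of 13 in class B and 25 of 26 in class C. BCT raised 4 of these 38 (10.5%), DNAJB2, DNAJC12, DNAJB4 and DNAJC2, beside 13.9% of all tested genes called higher. It lowered 2 (5.26%), DNAJC22 and DNAJC9, beside 17.8% of all tested genes called lower. When the samples were scaled to equal FPKM sums, the split became 0 lower and 19 higher, and with MIR6087 left out of the sums it became 0 lower and 13 higher. Of all 12729 tested genes, 668 were called lower and 5609 higher with equal sums. With MIR6087 left out of the sums, 1208 of them were called lower and 3369 higher. The 4 members called higher were also called under both of these scalings, under median-of-ratios scaling and under quantile normalization. Both equal-sum scalings raise the fold changes of all genes, so a higher call could hardly be lost under them. The median-of-ratios factors lay between 0.9987 and 1.0097, so that scaling changed little.

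Without the fold limit, 29 of the 38 members passed the FDR (76.3%), 11 of them lower and 18 higher, beside 82.1% of all tested genes. The 3 DMSO and the 3 BCT values did not overlap for 34 members (89.5%), beside 85.3% of all tested genes. Of all 38 tested members, 20 had a log2 fold change under 0.5 in size as deposited. The median over the tested members was 0.09 as deposited, beside -0.04 for all genes. It was 0.86 with equal sums, beside 0.72 for all genes, and 0.48 with equal sums without MIR6087, beside 0.34.

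**Figure D1:**
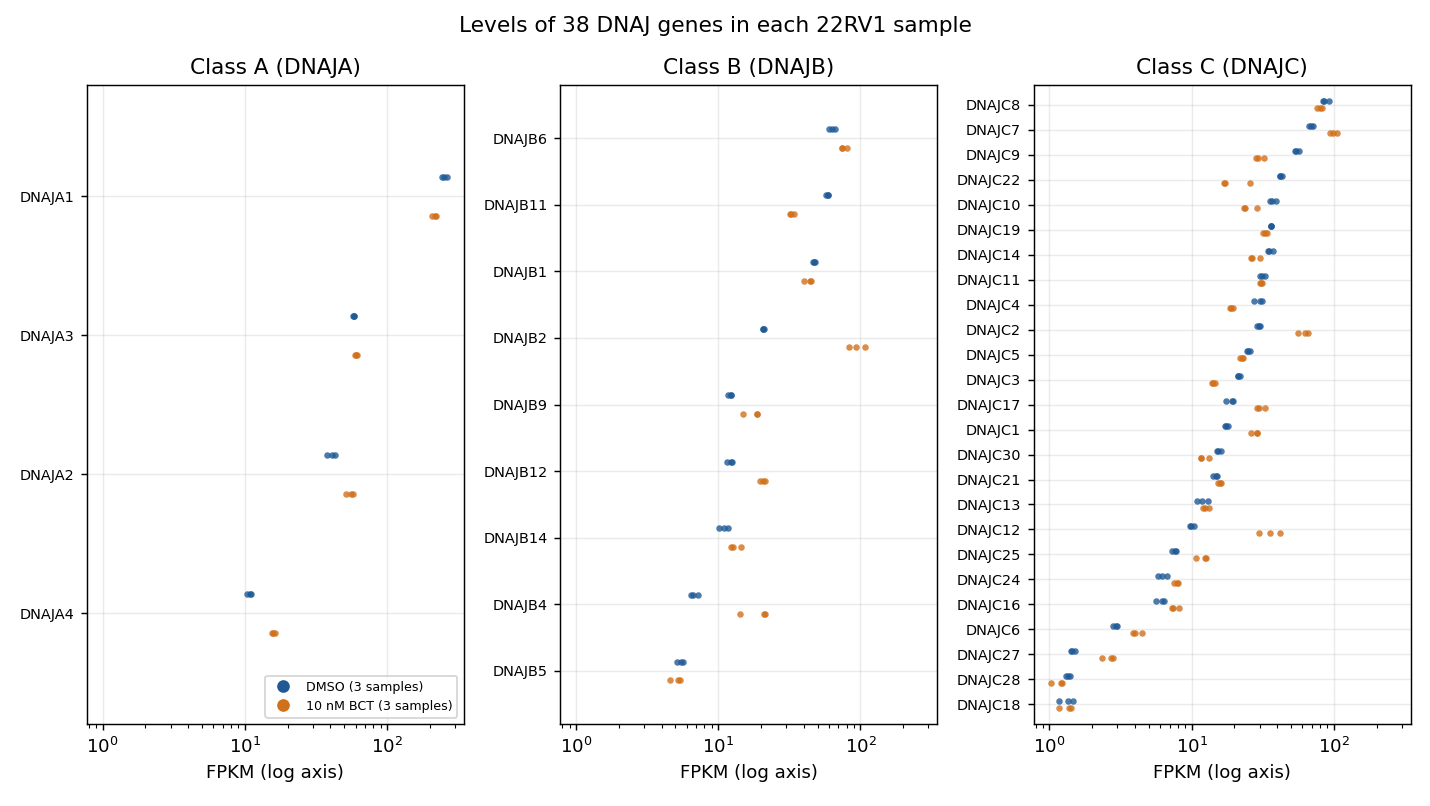
Level of the 38 tested DNAJ genes in each of the 6 samples of 22RV1 cells, in FPKM on a log axis, with class A, B and C in separate panels and genes ordered by level. Blue points are DMSO samples and orange points are BCT samples as deposited; DNAJA1 is the highest gene of both groups, and DNAJB2 and DNAJC12 show the widest gaps between colours.

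Levels within the family spanned a wide range. DNAJA1, a class A cochaperone of the cytosol, was the most abundant member, at 262.1, 250.8 and 244.1 FPKM with DMSO and 218.2, 220.2 and 207.4 FPKM with BCT. It alone made up 20.8% ± 0.33 (SD, n = 3) of the summed DNAJ level with DMSO and 16.5% ± 0.60 with BCT. The next members with DMSO were DNAJC8 at 86.9 ± 4.64 FPKM, DNAJC7 at 69.1 ± 2.03 FPKM and DNAJB6 at 63.3 ± 3.05 FPKM. With BCT the order behind DNAJA1 was DNAJC7 at 99.2 ± 6.05 FPKM, DNAJB2 at 94.7 ± 12 FPKM and DNAJC8 at 79.6 ± 3.70 FPKM, of which DNAJC7 and DNAJB2 overlapped in their sample values. DNAJB2 thus moved from rank 19 to rank 3 of the 43, DNAJC12 from rank 29 to rank 10 and DNAJC2 from rank 16 to rank 6. In the other direction DNAJC22 moved from rank 9 to rank 21, DNAJC9 from rank 7 to rank 15 and DNAJB11 from rank 5 to rank 11.

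The summed level of all 43 members was 1238, 1216 and 1186 FPKM with DMSO and 1272, 1336 and 1299 FPKM with BCT, a ratio of 1.07 between the means. The BCT values were all above the DMSO values as deposited. The shares of the sum are not altered by scaling all genes of a sample by the same factor, though quantile normalization can alter them. Class A held 29.8% ± 0.39 of it with DMSO and 26.6% ± 0.61 with BCT. Class B held 19.6% ± 0.088 and 24.8% ± 0.94, and class C held 50.6% ± 0.48 and 48.6% ± 0.61. None of these class shares overlapped between the groups. Within class B, DNAJB2 had a share of 1.70% ± 0.021 with DMSO and 7.26% ± 0.74 with BCT. The rise in mean share of DNAJB2 was no smaller than that of the whole class, so the rest of class B did not gain.

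Of the 5 members that were too low to be tested, DNAJB8 was listed at 0 in every sample. DNAJC15, which takes part in mitochondrial protein import, was listed at 0.010, 0 and 0.022 FPKM in the DMSO samples and at 0 in all BCT samples. DNAJB3, DNAJB7 and DNAJB13, genes known mainly from testis, did not exceed 0.388 FPKM in any sample.

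DNAJB2, the J protein with ubiquitin-interacting motifs that passes HSP70 clients on to the proteasome, showed the largest change of the family. It lies at chr2:220144040-220151622 (hg19, plus strand) and shared no exon bases with another annotated gene. Its level was 20.9, 20.6 and 20.5 FPKM with DMSO and 83.6, 107.4 and 93.3 FPKM with BCT. The lowest BCT sample was well above all DMSO samples, and the means differed by a ratio of 4.58. The log2 fold change was 2.18 (SE 0.085, limma adjusted p 4.4e-07).

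DNAJC12, a cochaperone of the aromatic amino acid hydroxylases, lies at chr10:69556427-69597937 (minus strand) and likewise shared no exon bases with another gene. It stood at 10.3, 9.74 and 9.91 FPKM with DMSO, against 29.9, 35.6 and 41.8 FPKM with BCT. The DMSO samples were tightly grouped and the BCT samples spread widely, without overlap. The log2 fold change was 1.82 (SE 0.11, limma adjusted p 1.8e-06).

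DNAJB4, a cytosolic class B cochaperone related to DNAJB1, lies at chr1:78470636-78482995 (plus strand). Its level was 7.20, 6.61 and 6.39 FPKM with DMSO and 14.3, 21.3 and 20.8 FPKM with BCT, so that BCT replicate 1 lay between the DMSO samples and the other BCT samples. The log2 fold change was 1.45 (SE 0.14, limma adjusted p 2.3e-05), and 1.63 without BCT replicate 1.

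DNAJC2, the J protein of the ribosome-associated complex that assists nascent chains, is listed at chr7:102937873-102985320 (minus strand). GENCODE gives this gene a shorter span, 102952736-102985277. It stood at 29.5, 30.1 and 28.7 FPKM with DMSO, against 56.1, 65.7 and 62.6 FPKM with BCT, again without overlap. The log2 fold change was 1.06 (SE 0.065, limma adjusted p 2e-06). The library kit does not mark strand, and 21.1% of the exon bases of DNAJC2 are shared with genes of the other strand, chiefly PMPCB, whose own log2 fold change was -0.33 (SE 0.046, limma adjusted p 0.00018).

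DNAJC22, a membrane J protein whose fly counterpart acts in endocytosis, showed the largest decrease. It lies at chr12:49740700-49747467 (plus strand) and shared no exon bases with another gene. The level was 41.8, 43.1 and 41.8 FPKM with DMSO and 25.6, 17.1 and 17.0 FPKM with BCT. All BCT samples were below all DMSO samples, and BCT replicate 1 was the nearest to them. The log2 fold change was -1.11 (SE 0.14, limma adjusted p 0.00012) as deposited, -0.72 with equal sums without MIR6087 and -0.34 with equal sums, where the call was lost.

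DNAJC9, a chaperone of histones H3 and H4 and a cofactor of HSP70 in the nucleus, is listed at chr10:74927877-75007089 (minus strand). GENCODE gives this gene a shorter span, 74943120-75007013. Its level was 56.8, 53.0 and 54.2 FPKM with DMSO and 32.2, 29.2 and 28.6 FPKM with BCT, without overlap. The log2 fold change was -0.86 (SE 0.060, limma adjusted p 3.4e-06), just past the fold limit. The call was lost without DMSO replicate 1 (-0.837), BCT replicate 2 (-0.847) or BCT replicate 3 (-0.830), with a pseudocount of 1 (-0.845), after quantile normalization (-0.78) and with equal sums (-0.10, and -0.48 without MIR6087). FAM149B1, on the other strand, covers 1819 of the 3218 exon bases of DNAJC9 (56.5%), and its own log2 fold change was 0.58 (SE 0.050, limma adjusted p 1e-05).

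BCT replicate 1 was the BCT sample nearest to the DMSO mean for all 6 called members and for 25 of the 38 tested members (65.8%). The same held for 87.8% of all called genes and for 69.1% of all tested genes. Without BCT replicate 1, all 6 members remained called, with log2 fold changes of 2.27 for DNAJB2, 1.94 for DNAJC12, 1.12 for DNAJC2, -1.30 for DNAJC22 and -0.92 for DNAJC9. DNAJC27, at 0.80 with all samples, was then called as well, at 0.87.

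The cytosolic and nuclear J proteins that take part in general folding comprise DNAJA1, DNAJA2, DNAJA4, DNAJB1, DNAJB2, DNAJB4, DNAJB5, DNAJB6 and DNAJC7. All 9 were tested, 2 were called higher (DNAJB2 and DNAJB4, 6 with equal sums) and none lower. Their median log2 fold change was 0.44 (1.21 with equal sums, 0.83 without MIR6087). Beside them, 13.9% of all tested genes were called higher and 17.8% lower, with a median of -0.04. With equal sums 5609 of all 12729 were called higher, with a median of 0.72 (0.34 without MIR6087). Class A was tested in full and held no called member as deposited, with a median of 0.25. With equal sums DNAJA2 (1.21) and DNAJA4 (1.32) were called higher, and the median was 1.01. DNAJA1, the main class A partner of cytosolic HSP70, had a log2 fold change of -0.23 (SE 0.050, limma adjusted p 0.0027), which turned to 0.54 with equal sums, to 0.16 without MIR6087 and to 0.09 after quantile normalization. DNAJA2, its close relative, stood at 42.9, 40.8 and 37.6 FPKM with DMSO, against 51.7, 57.3 and 56.1 FPKM with BCT, with a log2 fold change of 0.44 (SE 0.065, limma adjusted p 0.00026). DNAJA4, a class A member of the cytosol, went from 10.8 ± 0.35 to 15.9 ± 0.36 FPKM with a log2 fold change of 0.56 (SE 0.052, limma adjusted p 1.6e-05). Neither DNAJA2 nor DNAJA4 overlapped between groups, yet both stayed short of the fold limit as deposited.

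DNAJB1, the heat-inducible class B partner of HSP70, stood at 47.8, 47.5 and 46.2 FPKM with DMSO, against 44.3, 45.2 and 39.8 FPKM with BCT. Its log2 fold change was -0.13 (95% interval -0.269 to 0.005, limma adjusted p 0.068), without overlap between the groups, a sign that turned to 0.63 with equal sums and to 0.25 without MIR6087. DNAJB4 and DNAJB5 are its closest relatives in the family. DNAJB4 rose as given above, whereas DNAJB5 stood at 5.44 ± 0.27 FPKM with DMSO and 5.05 ± 0.45 FPKM with BCT, with overlapping groups and an interval of -0.30 to 0.08 on the log2 scale.

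DNAJB6, which keeps polyglutamine and other aggregation-prone proteins soluble, stood at 66.5, 63.0 and 60.4 FPKM with DMSO, against 74.2, 74.2 and 80.0 FPKM with BCT (log2 fold change 0.27). DNAJC7, a tetratricopeptide-repeat J protein that binds both HSP70 and HSP90, stood at 70.9, 69.5 and 66.9 FPKM with DMSO, against 93.2, 105.3 and 99.0 FPKM with BCT. Its log2 fold change was 0.52 (1.29 with equal sums), without overlap between the groups.

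Heat shock factor binds pairs and triplets of the unit GAA in alternating orientation, and windows of RefSeq promoters (GRCh38.p14, 250 bases before to 50 after each start) were searched for such elements on both strands. RefSeq held such a window for 39 of the 43 members. The paired unit GAANNTTC, which reads the same on both strands, was found in 6 of these 39 genes (15.4%), DNAJA1, DNAJA4, DNAJB1, DNAJB6, DNAJB7 and DNAJC6, beside 8.21% of all genes with a window. Counted by window, it was found in 13.7% of the windows of members and 6.77% of all windows. A run of 3 alternating units, which contains the pair, was found in DNAJA1 and DNAJB6 (5.13% of the 39 genes), beside 0.608% of all genes with a window. Of the 6 members with the pair, DNAJB7 was too low to be tested and none of the others was called as deposited. Among all 38 tested members 6 were called, so with so few genes no link to the element can be read from this, and none was tested. The windows upstream of the start in 4 folding cochaperones are shown, 30 bases each in the direction of the gene with the matched element in capitals:
DNAJA1, chr9:33025064-33025093, plus strand: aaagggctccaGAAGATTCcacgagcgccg
DNAJA4, chr15:78264460-78264489, plus strand: ggaacctccgcGAAGGTTCtaggcctttgt
DNAJA4, chr15:78264499-78264528, plus strand: gtctccttgcgGAAGCTTCcgccggcgccg
DNAJB1, chr19:14518456-14518485, minus strand: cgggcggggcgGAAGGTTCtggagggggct
DNAJB1, chr19:14518426-14518455, minus strand: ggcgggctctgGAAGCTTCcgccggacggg
DNAJB6, chr7:157336864-157336893, plus strand, triplet: aagagccgaGAACCTTCGCGAAggtggggc

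These 4 genes had log2 fold changes of -0.23 (DNAJA1), 0.56 (DNAJA4), -0.13 (DNAJB1) and 0.27 (DNAJB6) as deposited, none of them called. With equal sums the 2 negative values turned positive, and DNAJA4 (1.32) and DNAJB6 (1.03) were called higher, as was DNAJC6 (1.23). The element was in no window of DNAJB2, DNAJB4, DNAJC2, DNAJC9 or DNAJC12, the called members with a window. A match is a description of the letters in these windows and not of a bound site. The ER stress response element, CCAAT followed after 9 bases by CCACG, was found in 0 of the 39 members, beside 0.0916% of all genes with a window. The sequence TGACGTGG was found in DNAJC10 alone (2.56% of the 39 members), beside 0.927% of all genes with a window.

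The J proteins of the endoplasmic reticulum (ER) serve HSPA5, also called BiP, from the lumen or act at the ER membrane. All 10 were tested and none was called as deposited, with a median log2 fold change of 0.29, but the members lay far apart. With equal sums 6 were called higher and the median was 1.05. Over all tested genes 13.9% were called higher and 17.8% lower as deposited, with a median of -0.04. With equal sums 5609 of all 12729 were called higher, with a median of 0.72. Of the lumenal cochaperones, DNAJB11, which binds unfolded proteins secreted through the ER, stood at 59.3, 58.7 and 57.5 FPKM with DMSO, against 32.2, 34.2 and 32.3 FPKM with BCT. Its log2 fold change of -0.83 (SE 0.048) lay just under the fold limit as deposited, passed it without BCT replicate 2 (-0.86) and was -0.06 with equal sums. DNAJC3, which restrains the kinase PERK, stood at 21.3 ± 0.35 FPKM with DMSO and 14.2 ± 0.34 FPKM with BCT (log2 fold change -0.58, 0.19 with equal sums). DNAJC10, a disulfide reductase of ER-associated degradation, stood at 36.9, 39.5 and 35.5 FPKM with DMSO, against 28.8, 23.2 and 23.6 FPKM with BCT (log2 fold change -0.57, 0.20 with equal sums). None of these 3 overlapped between the groups. DNAJB9, the fourth lumenal member, which represses IRE1, had the opposite sign with 12.1 ± 0.39 FPKM with DMSO and 17.5 ± 2.23 FPKM with BCT (log2 fold change 0.53).

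The members anchored in the ER membrane were higher or level. DNAJB12, which takes membrane proteins to degradation, stood at 11.4, 12.3 and 12.5 FPKM with DMSO, against 19.8, 21.2 and 20.8 FPKM with BCT, a log2 fold change of 0.77 (SE 0.057). DNAJB14, its paralog, had a log2 fold change of 0.26. DNAJC1 (0.68), DNAJC25 (0.65) and DNAJC16 (0.32) were also above their DMSO samples in all BCT samples, whereas DNAJC18 overlapped between the groups (-0.01, interval -0.35 to 0.33). With equal sums DNAJB12, DNAJB14, DNAJC1, DNAJC25, DNAJC16 and DNAJB9 passed the fold limit. DNAJC3-AS1, a transcript named as antisense to DNAJC3 and outside the family rule, stood at 4.41, 4.20 and 4.58 FPKM with DMSO, against 1.73, 1.40 and 1.25 FPKM with BCT. It was called lower, with a log2 fold change of -1.54 (SE 0.13, limma adjusted p 7.8e-06), and its annotated exons share no bases with those of DNAJC3.

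Mitochondrial J proteins serve HSPA9, the HSP70 of the matrix, or act at the inner membrane. Of 7 members 6 were tested, none was called, and the median was -0.18 as deposited (0.56 with equal sums, 0.19 without MIR6087). Over all tested genes 13.9% were called higher and 17.8% lower as deposited. Their median was -0.04 (0.72 with equal sums, 0.34 without MIR6087). DNAJA3, the class A member of the matrix, stood at 58.9, 58.4 and 57.7 FPKM with DMSO, against 61.3, 60.9 and 59.1 FPKM with BCT. These values did not overlap, but the log2 fold change of 0.05 (SE 0.044, limma adjusted p 0.32) had an interval of -0.05 to 0.15. DNAJC19, a partner of the import motor, stood at 36.1, 36.2 and 36.3 FPKM with DMSO, against 34.1, 31.6 and 32.7 FPKM with BCT (log2 fold change -0.14). DNAJC11, which associates with the complex that shapes the cristae, overlapped between the groups (-0.03, interval -0.15 to 0.08).

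The 2 lowest log2 fold changes among mitochondrial members were those of DNAJC4 (-0.64) and of DNAJC30 (-0.35), a cofactor of complex I upkeep, and DNAJC28 was at -0.21. DNAJC4 shares 13.9% of its exon bases with other genes. All 3 turned positive with equal sums, at 0.12, 0.41 and 0.50. HSCB, a mitochondrial J domain gene of iron-sulfur cluster assembly whose symbol lies outside the rule, stood at 16.9, 15.2 and 15.7 FPKM with DMSO, against 28.1, 30.5 and 29.2 FPKM with BCT, and was called higher (log2 fold change 0.87, SE 0.059, limma adjusted p 3.1e-06).

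J proteins of the spliceosome, the nucleus and the ribosome were tested in full (5 of 5). As deposited, 1 was called lower (DNAJC9) and 1 higher (DNAJC2), with a median of 0.11. Beside them, 17.8% of all tested genes were called lower and 13.9% higher, with a median of -0.04. With equal sums 0 of the 5 were lower and 3 higher, with a median of 0.87. That scaling gave 668 lower, 5609 higher and a median of 0.72 over all 12729 tested genes. DNAJC8, a splicing-associated member, stood at 92.2, 85.4 and 83.3 FPKM with DMSO, against 75.5, 82.8 and 80.4 FPKM with BCT. The BCT samples were lower without overlap as deposited, by little more than the spread between replicates (log2 fold change -0.13, interval -0.26 to 0.01), and the sign turned with equal sums (0.64) and after quantile normalization (0.04). DNAJC17, also of the spliceosome, stood at 18.8 ± 1.18 FPKM with DMSO and 30.4 ± 2.15 FPKM with BCT (log2 fold change 0.69), with 27.9% of its exon bases shared with genes of the other strand. DNAJC21, needed for maturation of the large ribosomal subunit, had a log2 fold change of 0.11 (interval -0.01 to 0.23).

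Of 6 vesicle and endosome genes, DNAJC5B and DNAJC5G were not above 0.048 FPKM in any sample, and none of the other 4 was called as deposited (median 0.28). With equal sums DNAJC27 (1.53) and DNAJC6 (1.23) were called higher, and the median was 1.03. Over all tested genes 13.9% were called higher and 17.8% lower as deposited, with a median of -0.04. With equal sums 5609 of all 12729 were called higher, with a median of 0.72. DNAJC27, a small GTPase with a J domain, stood at 1.51, 1.42 and 1.45 FPKM with DMSO, against 2.35, 2.79 and 2.73 FPKM with BCT (log2 fold change 0.80). DNAJC6, the auxilin that strips clathrin coats together with HSPA8, stood at 2.90 ± 0.094 FPKM with DMSO and 4.09 ± 0.31 FPKM with BCT (log2 fold change 0.48). GAK, the broadly expressed auxilin, had the opposite sign at -0.20 (SE 0.056, limma adjusted p 0.0096) as deposited and 0.57 with equal sums. DNAJC13, which acts on endosomes, overlapped between the groups (0.08, interval -0.09 to 0.25), and DNAJC5, the cysteine string protein, was at -0.16 as deposited and 0.61 with equal sums. DNAJC24, of diphthamide synthesis, was at 0.33 and DNAJC14 at -0.37 as deposited and 0.40 with equal sums, with 58.1% of the exon bases of DNAJC14 shared with other genes. SEC63, the J domain subunit of the ER translocon, was at 0.23.

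**Figure D2:**
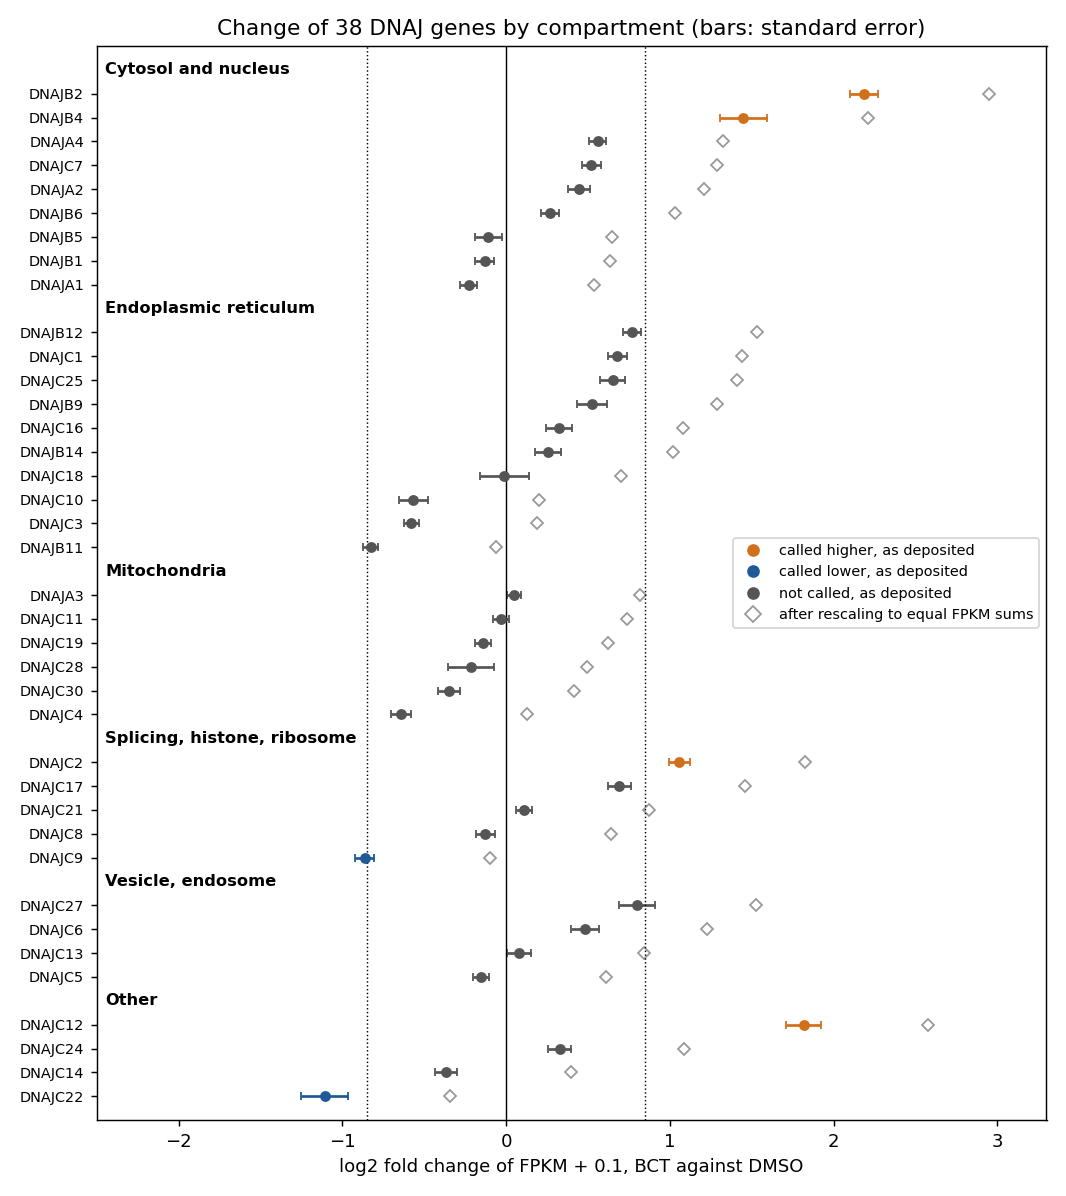
Log2 fold change (BCT against DMSO, FPKM + 0.1) of the 38 tested DNAJ genes by compartment; filled points with standard errors are values as deposited, open diamonds the same after scaling to equal FPKM sums, and dotted lines the limits of -0.85 and 0.85. As deposited 4 genes are called higher and 2 lower. With equal sums, which raise the fold changes of all genes, 0 are called lower and 14 genes, DNAJA1 and DNAJB1 among them, turn from negative to positive.

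Among the genes with which J proteins work, those of HSP70 and HSP110 moved differently from the J genes. Of 16 such genes, 13 were tested, 6 were called lower and none higher, and 9 were negative and 4 positive. Their median log2 fold change was -0.79 (-0.05 with equal sums, where 2 were lower and 3 higher). Over all tested genes 17.8% were called lower and 13.9% higher as deposited. With equal sums 668 of all 12729 were lower and 5609 higher. HSPA8, the constitutive HSP70 of the cytosol, stood at 1052, 1043 and 971 FPKM with DMSO, against 500.0, 272 and 266 FPKM with BCT (log2 fold change -1.63, SE 0.22, limma adjusted p 0.00014). It stayed lower with equal sums (-0.86). HYOU1 (-1.68), HSPA5 (-1.25) and HSPA2 (-1.10) were called lower as deposited and remained negative with equal sums, at -0.91, -0.48 and -0.35. HSPA1A and HSPA1B, near-identical stress-inducible genes whose reads cannot be told apart with certainty, were at -0.95 and -0.96. Of 9 nucleotide exchange factors, which release the client from HSP70, 1 was called lower (HSPBP1, -0.89 as deposited and -0.12 with equal sums) and none higher, with a median of -0.06 as deposited. With equal sums 0 were lower and 3 higher, with a median of 0.70. Both medians lay near those of all tested genes, -0.04 and 0.72.

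Since J protein and HSP70 act together, the summed level of J genes was divided by that of HSP70 genes of the same compartment. The ER and mitochondrial lists include members that act at membranes and may not work with HSPA5 or HSPA9. Such a ratio, taken in each sample, is not altered by scaling all genes of a sample by the same factor, though quantile normalization can alter it. These ratios were chosen with the values known and are given without a test. For the 9 folding J genes of the cytosol and nucleus over HSPA1A, HSPA1B, HSPA2 and HSPA8, the ratio was 0.482, 0.468 and 0.486 with DMSO and 1.12, 2.19 and 2.12 with BCT. BCT replicate 1 lay between the DMSO samples and the other BCT samples, and the groups did not overlap. DNAJA1 over HSPA8 alone was 0.249, 0.240 and 0.251 with DMSO and 0.436, 0.809 and 0.781 with BCT.

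In the ER, the 10 J genes over HSPA5 had a ratio of 0.632, 0.610 and 0.566 with DMSO and of 1.41, 1.25 and 1.36 with BCT. The lumenal members DNAJB9, DNAJB11, DNAJC3 and DNAJC10 on their own had a mean ratio to HSPA5 of 0.422 ± 0.026 with DMSO and 0.699 ± 0.056 with BCT. In mitochondria, the 7 J genes over HSPA9 had a ratio of 0.774, 0.747 and 0.833 with DMSO and of 1.19, 1.24 and 1.27 with BCT. DNAJC2 over HSPA14, its partner at the ribosome, was 1.16 ± 0.054 with DMSO and 2.32 ± 0.12 with BCT, while HSPA14 itself had a log2 fold change of 0.06 (SE 0.055, limma adjusted p 0.34). In all 4 settings the BCT samples lay above the DMSO samples. In the ER and in mitochondria the summed J genes themselves were lower with BCT as deposited, at 173 ± 4.46 against 185 ± 3.59 FPKM and at 156 ± 3.29 against 173 ± 1.28 FPKM, while the means of HSPA5 and HSPA9 stood at 0.421 and 0.576 of their DMSO level.

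**Figure D3:**
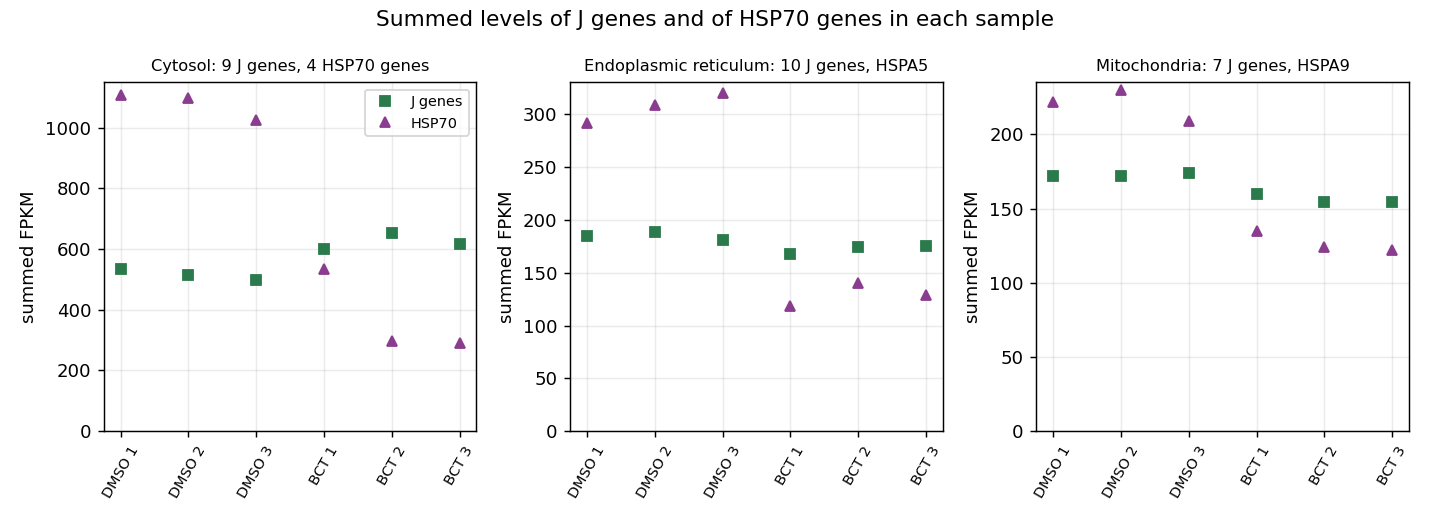
Summed FPKM as deposited of J genes (green squares) and of HSP70 genes of the same compartment (purple triangles) in each sample. Panels show the cytosol and nucleus, the ER and the mitochondria, and each axis starts at 0. HSP70 lies above the J genes in every DMSO sample and below them in every BCT sample, an order that a common factor for all genes of a sample cannot change.

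The last lists hold genes controlled by the factors that also control some DNAJ genes. Of 12 heat shock factor targets outside HSP70, 11 were tested, 4 were called lower (HSPE1 at -1.38, HSPD1 at -1.30, FKBP4 at -0.99 and CACYBP at -0.91) and 1 higher (CHORDC1 at 0.88, named after its value was seen), with a median of -0.76. With equal sums 0 were lower and 3 higher, with a median of 0.01, and after quantile normalization 1 was lower and 1 higher. Over all tested genes 17.8% were called lower and 13.9% higher as deposited, with a median of -0.04. With equal sums 668 of all 12729 were lower and 5609 higher, with a median of 0.72. Of 12 ER stress targets outside the HSP70 family, all were tested, 9 were called lower and none higher, with a median of -1.59 that stayed negative with equal sums (-0.82, 6 lower). Among them SDF2L1, a partner of DNAJB11 in the ER lumen, had a log2 fold change of -2.76, PDIA4 of -2.64, CRELD2 of -2.02 and CALR of -2.0. The lumenal DNAJB11, DNAJC3 and DNAJC10 had the same sign as deposited, at a smaller size than these 4, which were picked for large changes. All 12 ER stress targets ranged from -2.76 to -0.23, and these 3 DNAJ genes lay within that range. DNAJB9 had the opposite sign.

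Some values rest on reads that other genes can share. Among tested members without such a share given above, the most exon bases shared with other genes were in DNAJB11 (14.15%), DNAJC25 (13.75%), DNAJC8 (12.72%) and DNAJC11 (11.65%). By name, 9 annotated pseudogenes belong to DNAJC19, 8 to DNAJB6, 6 to DNAJA1, 4 to DNAJC8 and 2 to DNAJB1, so the level of these members is less certain. None of the 6 called members has a pseudogene named after it.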

How the data were processed

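RNA-seq libraries were made with a kit that does not mark strand. The authors trimmed reads with Trimmomatic 0.38, mapped them onto hg19 using HISAT2, derived FPKM with StringTie and deposited 1 such value for each gene in each sample; the submitters' processing notes also name CASAVA and HTSeq. FPKM holds no counts, so the number of reads behind a gene is unknown here. From the deposited values, log2(FPKM + 0.1) was fitted by group in R 4.3.3 using limma 3.58.1 (lmFit, then eBayes with trend) for the 12729 genes whose mean reached 1 FPKM, and only the rows of DNAJ genes and of the lists named are printed. The steps were tested on simulated data. Members and gene lists were chosen with earlier results of these data known. Full statistics are given for class A and for called members, levels per sample for called members and for the 10 members with the highest mean (also, chosen after their values were seen, for DNAJB12, DNAJC10, DNAJC19, DNAJC27 and the low DNAJC15), and from other lists at most 4 called genes with the largest change, besides J domain genes with other symbols; some genes of the lists are not reported here. HSPA1A, HSPA1B, HSPA9, HSPA14, CHORDC1, DNAJC3-AS1, PMPCB and FAM149B1 fall outside this rule and were named after their values were seen. The labels number the samples 1 to 3 in both groups, but same-numbered samples correlated at 0.116, 0.033 and 0.034 in their deviations from the group means, so the numbers were not taken to pair them. Positions are those of the deposited tables with 1 added to the start, which then equals a GENCODE transcript start for 16 of the 43 members (3 without it). Shared exon bases come from GENCODE lifted to GRCh37 and promoter windows from RefSeq (GRCh38.p14). The settings varied were the pseudocount, the low-level filter, 4 scalings, the FDR, the variance model, the replicate block and each sample left out.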

Additional observations from a re-analysis of the deposited data

How the results depend on the processing

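As deposited, 2 members were called lower and 4 higher. Over the settings tried, 612 of 680 results for single members kept their direction and their side of the limits, 26 passed the limits only in the alternative, 9 lost the call and 33 turned in sign. The stricter FDR, the variance models, the replicate block and the low-level filters leave each log2 fold change as it is. Those settings could not turn a sign, so the count of unchanged results overstates how far the values were put to the test. Equal FPKM sums gave 0 lower and 19 higher, a median of 0.856 and a log2 ratio of the summed family level of 0.863. Over all 12729 tested genes this scaling gave 668 lower, 5609 higher and a median of 0.719. Equal sums without MIR6087 gave 0 lower and 13 higher, a median of 0.477 and a ratio of 0.490. Over all tested genes that scaling gave 1208 lower, 3369 higher and a median of 0.344. Quantile normalization gave 1 lower, a median of 0.143 and a ratio of 0.233, and a pseudocount of 1 gave 1 lower. Leaving out 1 sample at a time gave 1 to 2 lower and 4 to 5 higher, and a median of 0.0793 to 0.129. DNAJC9 was the member lost from the lower calls in these settings, joined by DNAJC22 under both equal-sum scalings. Without the filter on low values DNAJB13 was called as well. The replicate block gave 2 lower, 4 higher and a median of 0.093, with the same 6 genes called, and it changed no call.

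With equal sums the sign turned for DNAJA1 (0.539), DNAJB1 (0.635), DNAJB5 (0.644), DNAJC3 (0.186), DNAJC4 (0.125), DNAJC5 (0.610), DNAJC8 (0.641), DNAJC10 (0.198), DNAJC11 (0.736), DNAJC14 (0.399), DNAJC18 (0.703), DNAJC19 (0.624), DNAJC28 (0.496) and DNAJC30 (0.411). With MIR6087 left out of the sums it turned for DNAJA1 (0.158), DNAJB1 (0.254), DNAJB5 (0.270), DNAJC5 (0.230), DNAJC8 (0.259), DNAJC11 (0.356), DNAJC14 (0.0185), DNAJC18 (0.350), DNAJC19 (0.243), DNAJC28 (0.144) and DNAJC30 (0.0324). After quantile normalization it turned for DNAJA1 (0.0862), DNAJC8 (0.0415), DNAJC11 (0.0151) and DNAJC18 (0.0180). With 1 sample left out, DNAJC11 ranged from -0.0570 to 0.00105 and DNAJC18 from -0.0941 to 0.0710. With equal sums, all genes of a sample were divided by 1 factor, 1.16 to 1.56 for DMSO samples and 0.749 to 0.791 for BCT samples. Without MIR6087 these factors were 1.10 to 1.17 and 0.852 to 0.901. The turns in sign under these 2 scalings thus reflect a shift shared by all genes. The cause of the difference in sums, and of the other shifts, was not tested. The count-based tests planned as alternatives had no counts to use and were left out, and with 3 samples a group and no counts the precision of low members such as DNAJC18 and DNAJC28 is limited.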
